A study of Mus musculus with 23 samples.

Results

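The genes that copy DNA were followed through retinoic acid treatment of F9 cells. F9 is a mouse line of embryonal carcinoma, tumour stem cells that form extraembryonic endoderm under this compound. The set held 45 genes chosen by name from the protein complexes of the replication fork, and all 45 were found by symbol among the 36814 genes of the count tables. All 45 also passed the filter for low counts, which kept 16155 genes, and their counts ran from 192 for Pole2 to 10633 for Mcm5 in single libraries. The agent was all-trans retinoic acid (RA), used at 1e-07 M, and the solvent control was dimethyl sulfoxide (DMSO) at 0.001%. The mRNA libraries comprised 4 from the start of the course at 0 h, whose labels carry the RA tag at time 0, 2 each after 6, 12, 24 and 48 h in RA, and 1 each after 24 and 48 h in DMSO. All groups were F9 cells with no engineered allele named. The labels do not say that libraries of a group came from separate cultures, so each p-value rests on a spread between libraries that may be only technical. In bulk RNA, fewer cells in S phase and less RNA per cell cannot be told apart.

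Before a cell enters S phase, the origin recognition complex, Cdc6 and Cdt1 load the ring-shaped MCM2-7 helicase onto DNA. The kinase Cdc7 with its partner Dbf4 then switches the helicase on, together with Cdc45 and the GINS complex. DNA polymerases copy both strands behind the helicase, tethered by the sliding clamp Pcna, while RPA coats the single strands. Many of these genes are known targets of E2F factors, which the retinoblastoma protein holds back outside the G1 to S transition, and fast-cycling embryonal carcinoma cells pass that transition with little delay.

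Promoter windows of RefSeq (build GRCm38.p6), reaching from 250 bases before to 50 bases after each gene's start, were found for 38 of the 45 genes and searched on both strands for 4 E2F motifs, TTTGGCGC, TTTCCCGC, TTTCGCGC and TTTGCCGC. At least 1 of them stood in 13 of the 38 windows (34.2%), against 704 of 27025 genes with a window (2.6%) and 1 of 26 genes of a mitosis list (3.85%). The motif TTTGCCGC occurred in none of the 38. The stretches below belong to the 5 genes with an E2F motif before the start whose values in every library follow in the sections by role, and they are shown because the same letters recur in genes of different complexes. They are written 5′ to 3′ on the strand of the gene, with the E2F motif of either strand in capitals. The Mcm5 stretch lies at chr8:75109331-75109392 on the plus strand, Mcm6 at chr1:128359720-128359840 on the minus strand, Cdc6 at chr11:98907988-98908045 on the plus strand, Orc1 at chr4:108579402-108579453 on the plus strand and Gins3 at chr8:95633493-95633550 on the plus strand.
Mcm5: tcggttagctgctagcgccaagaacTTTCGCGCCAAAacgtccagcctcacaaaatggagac
Mcm6: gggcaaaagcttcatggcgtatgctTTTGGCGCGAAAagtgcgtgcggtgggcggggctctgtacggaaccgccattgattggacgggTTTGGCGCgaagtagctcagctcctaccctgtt
Cdc6: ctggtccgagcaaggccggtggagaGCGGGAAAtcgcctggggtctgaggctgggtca
Orc1: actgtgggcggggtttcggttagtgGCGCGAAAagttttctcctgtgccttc
Gins3: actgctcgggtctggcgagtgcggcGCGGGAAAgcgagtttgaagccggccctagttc

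In Mcm5 a TTTCGCGC on the gene's strand overlaps a TTTGGCGC on the other strand, and Mcm6 holds the same pair in the mirrored order, with a further TTTGGCGC nearer the start. The letters CCAAT stood in 60.5% of the members' windows, 73.1% of those of the mitosis list and 41.1% of all windows. For the retinoid receptor core motif AGGTCA the shares, in the same order, were 10.5%, 23.1% and 18.1%. The letters TTTGAA of the CHR element, known from mitotic promoters, stood in 18.4% of the members' windows, 73.1% of those of the mitosis list and 20.2% of all windows. A match describes letters and not binding.

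The libraries fell into 2 sets by a technical measure. Reads outside any annotated gene made up 57.3 to 59.43% of the sum of those reads and the gene counts in 7 libraries, here called set 1, and 52.51 to 53.77% in the other 7, set 2. Replicate 1 of 0 h and of each RA time and both DMSO libraries fell in set 1. Gene counts per library were 7.079 to 9.165 M in set 1 and 9.883 to 10.95 M in set 2. All fits therefore carried a term for the set, and values without it are given where they change a count. Of all genes, 20.1% were lower and 22% higher in set 2, and so were 24 of the 45 replication genes, 10 lower and 14 higher. The log2 difference reached 0.95 ± 0.12 (standard error, SE) for Orc6 and -0.69 ± 0.14 for Pcna. The labelled cell state was checked with marker lists. The 10 embryonal carcinoma markers summed to between 5040 and 6470 CPM (gene counts scaled to one common library total, after TMM scaling) at 0 h and between 1530 and 2460 CPM at 48 h of RA, while 10 endoderm markers went from 228 to 439 CPM up to 5460 to 7400 CPM. Feeder and blood markers stayed at or under 34.9 CPM in sum in every library, and 5 of 6 feeder markers averaged below 1 CPM at 0 h. The 3 neural markers matched summed to 155 to 234 CPM at 0 h and 99.4 to 125 CPM at 48 h.

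Replication transcripts first kept or passed their starting level and then stood lower at 24 h and lowest at 48 h of RA. Summed CPM of the 45 genes is given as a percentage of the common TMM-scaled total, which differs from the share of raw gene counts. It was 0.983 to 1.06% in the 4 libraries at 0 h, 1.11 and 1.12% at 6 h, and 1.04 and 1.1% at 12 h. It fell to 0.88 and 0.937% at 24 h and to 0.642 and 0.644% at 48 h. Rpa1 added to the sums from 6 to 24 h, with means of 368.5 CPM at 0 h and 692.3, 851.9 and 807.2 CPM at 6, 12 and 24 h. Other genes also added at 6 h, where the fitted change was above 0 for 31 of the 45 and below 0 for 14. Mean Mcm2 went from 632.1 CPM at 0 h to 762.9 CPM at 6 h, and mean Rrm2 from 527.5 to 671.2 CPM. In the sum the DMSO libraries stood at 1.05% after 24 h and 1.03% after 48 h, inside the range at 0 h. The fitted level was lowest at 48 h for 45 of the 45 genes. It was highest at 0 h for 11 genes, at 6 h for 20, at 12 h for 12 and at 24 h for 2.

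**Figure D1:**
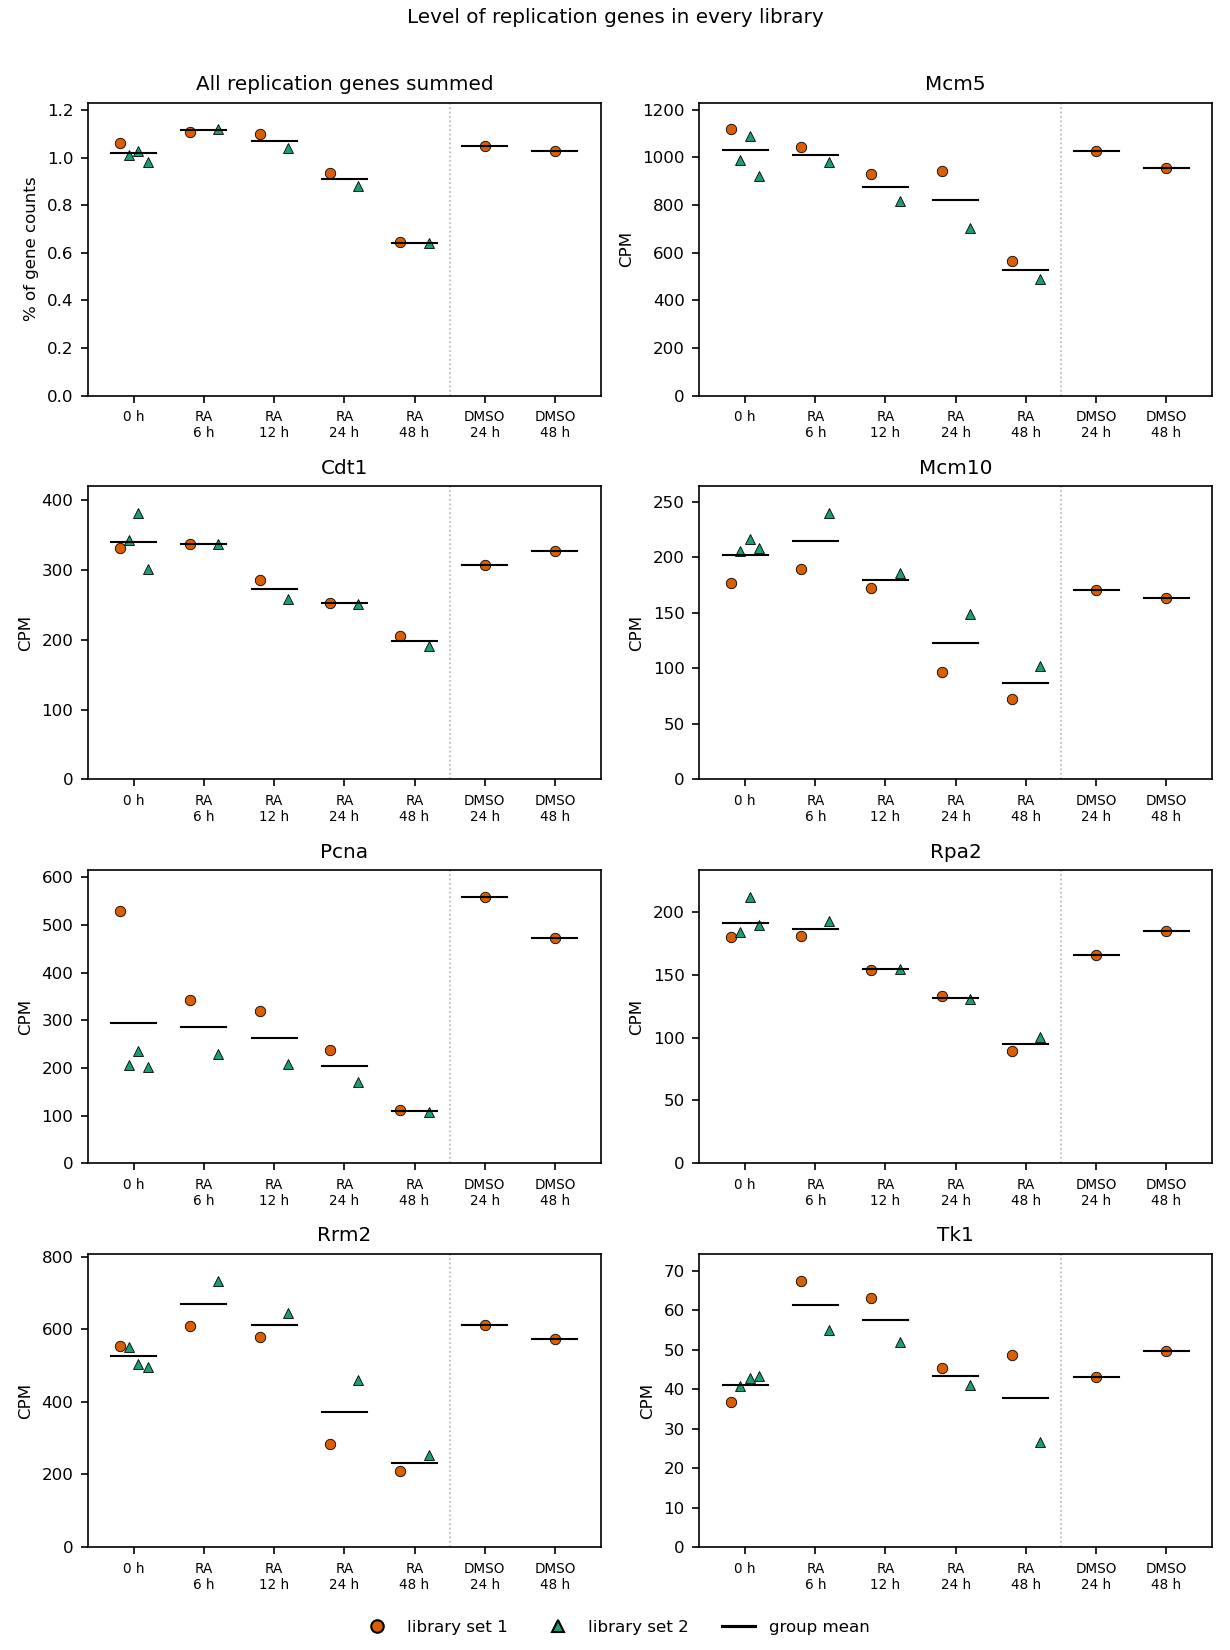
Level in each library of the 45 replication genes summed (first panel) and of 7 single genes (CPM), by group. The summed level is CPM as a percentage of the TMM-scaled total, on the axis labelled % of gene counts. Circles are libraries of set 1, triangles of set 2, bars are group means. Both 48 h RA libraries lie at 0.642 and 0.644% in the summed panel, below every other library, while Tk1 has 1 of its 48 h libraries above and 1 below the 0 h libraries.

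Early in RA few replication genes passed the test for a change. Calls were made with edgeR's quasi-likelihood test at a Benjamini-Hochberg adjusted p under 0.05 over all 16155 genes, and fold changes are on a log2 scale with their SE. At 6 h the call went to 1 of the 45 genes, Rpa1, which rose, where 4.1% of all genes rose and 1.51% fell. The median change of the 45 was 0.10, with 31 above 0, and 32 stood above 0 within set 1 and 33 within set 2. Both 6 h libraries lay above all 4 libraries at 0 h for 10 of the 45 genes, against 10.3% of all genes, and below all 4 for Gins1, against 8.23%. At 12 h Rpa1 was higher and Pold2 lower, where 7.38% of all genes were higher and 5.31% lower, and the median over the 45 was 0.09. Both 12 h libraries lay above all 4 at 0 h for 10 of the 45 genes, against 13.5% of all genes, and below all 4 for Cdt1 and Rpa2, against 12.2%. The call of Pold2 at 12 h was lost without the set term, where 0.594% of all genes were lower and 2.15% higher, in set 2 alone and without either 12 h library.

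By 24 h 15 of the 45 genes were lower and 1, Rpa1, was higher, where 13.5% of all genes were lower and 15.5% higher. The median change of the 45 was -0.18, with 36 below 0, and 35 were below 0 within each set. Both 24 h libraries lay below all 4 at 0 h for 14 of the 45 genes, against 14.8% of all genes, and above all 4 for Rpa1 and Rpa3, against 19%. Without the set term 2 genes were lower and 1 higher, where 4.26% of all genes were lower and 8.08% higher. The 13 calls lost there were those of Cdt1, Dbf4, Fen1, Gins4, Mcm3, Mcm5, Mcm7, Mcm10, Orc1, Pcna, Pold2, Rrm2 and Slbp. Most calls of the main fit were lost in set 2 alone, where each RA time has 1 library, and the median there was -0.17. Some calls were also lost without replicate 1 of 24 h, with a median of -0.20, and others without replicate 2, with a median of -0.21. Rpa1, Fen1, Mcm10 and Rpa2 were the 4 genes called in each of the 14 fits that left out 1 library.

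At 48 h 35 of the 45 genes were lower and none was higher, where 22.9% of all genes were lower and 25.8% higher. The fitted change lay below 0 for 45 of the 45 genes, with a median of -0.51 against 0.02 over all genes tested. It ran from -1.47 for Pcna, whose fitted level was 36.1% of that at 0 h, to -0.07 for Gins3. The 2 libraries at 48 h lay below all 4 at 0 h for 33 of the genes, against 22.7% of all genes, and above all 4 for none, against 27.4%. Within set 1 the plain difference was below 0 for 43 genes with a median of -0.56, and within set 2 for 44 genes with a median of -0.52. Without the set term 22 genes were called lower, where 12% of all genes were. In set 2 alone, with 1 library at 48 h, many calls were lost and the median was -0.51. Calls were also lost without replicate 2 of 48 h, with a median of -0.44. The 14 genes not called without that library were Cdc6, Mcm6, Orc1, Orc6, Pola1, Pola2, Pole, Prim1, Rfc1, Rfc2, Rpa1, Rrm1, Slbp and Tyms, and the other 21 were called in each of the 14 fits that left out 1 library. Embryonal carcinoma and endoderm markers moved over the same hours, as given above, and their part in the fall of the replication genes was not tested.

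**Figure D2:**
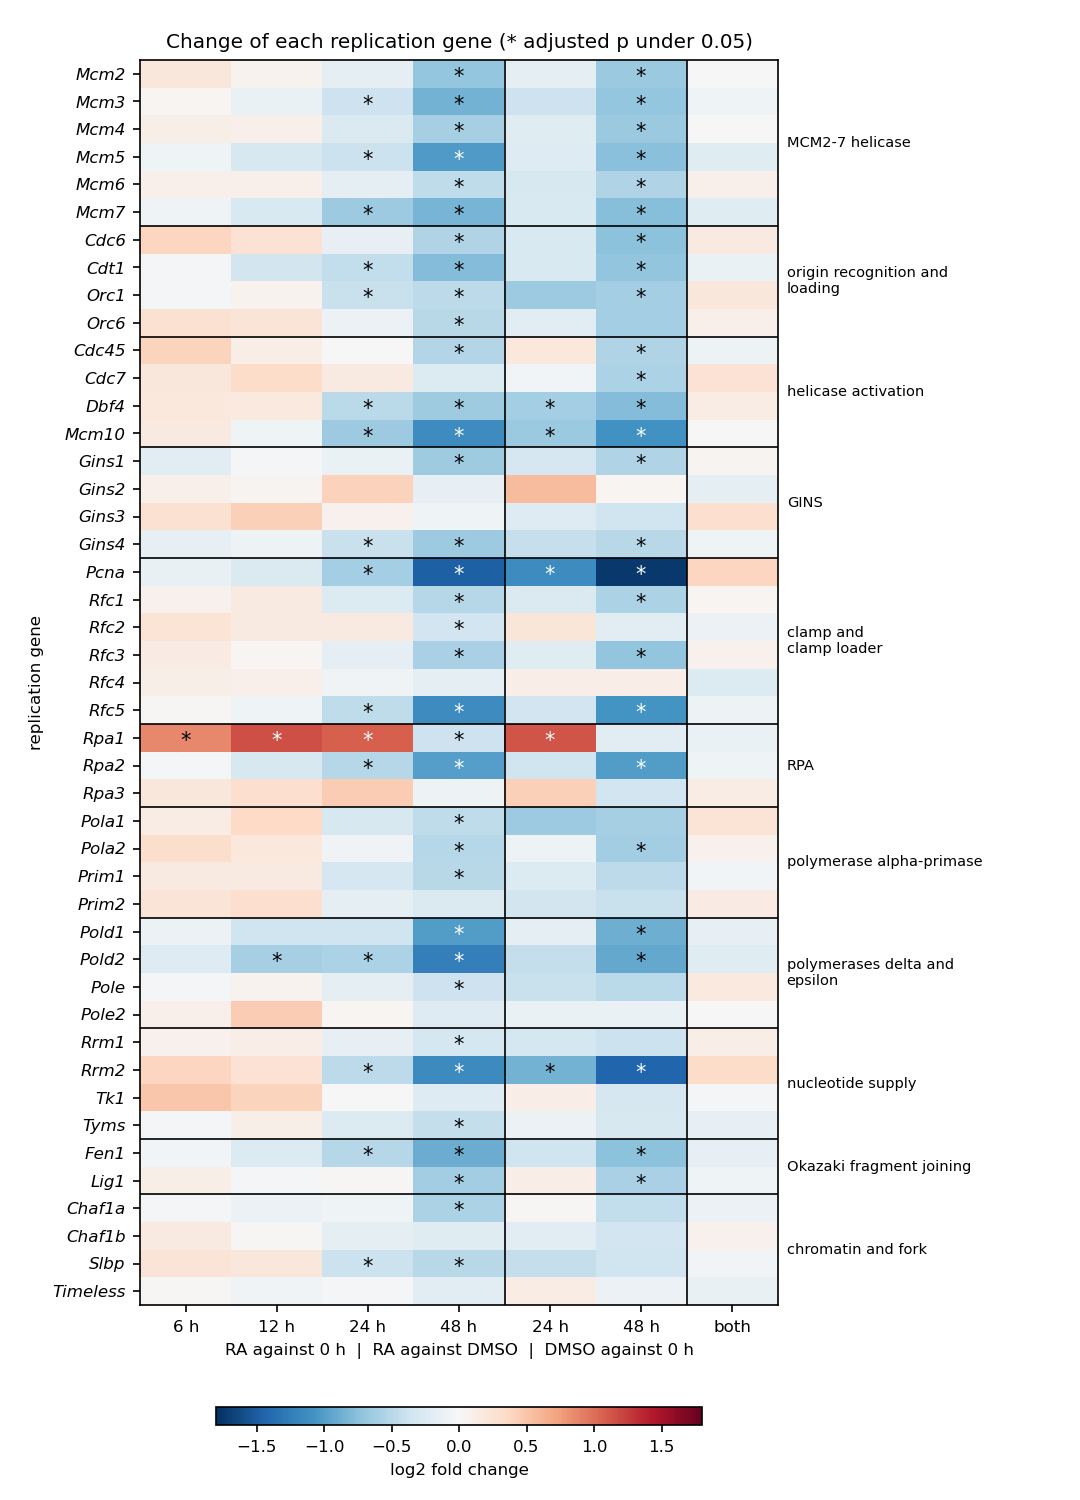
Log2 fold change of each of the 45 replication genes (one line each, grouped by role) for RA against 0 h, RA against DMSO at the same time and both DMSO libraries against 0 h. Blue is lower, red higher, and an asterisk marks an adjusted p under 0.05. The 48 h column against 0 h is blue for 45 of 45 genes, Rpa1 is red from 6 to 24 h, and the DMSO column holds no asterisk.

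The MCM2-7 genes, which encode the 6 subunits of the helicase ring, moved as a block at 48 h: 6 of 6 were lower, with a median of -0.77. The largest change was that of Mcm5. Its level at 0 h was 1119, 990.8, 1091 and 923 CPM, and it went through 1042 and 980.8 CPM at 6 h, 929.6 and 819.1 CPM at 12 h, 943.3 and 702.2 CPM at 24 h to 565.2 and 490.6 CPM at 48 h. Both 48 h libraries lay below all others, and the DMSO libraries held 1027 and 954.1 CPM. Mcm5 fell by 1.02 ± 0.12 (adjusted p = 1.16e-05) at 48 h and by 0.39 ± 0.11 (adjusted p = 0.0216) at 24 h. That 24 h call was lost without the set term, and the 24 h libraries overlapped those at 0 h.

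Mcm2 stood at 756.1, 630.3, 595.4 and 546.6 CPM at 0 h, 819.2 and 706.6 CPM at 6 h, 767.2 and 622 CPM at 12 h, 634.4 and 536.7 CPM at 24 h, and 449.2 and 371.4 CPM at 48 h. It was near its starting level until 24 h, and at 48 h both libraries were below all at 0 h, with a change of -0.69 ± 0.11 (adjusted p = 0.000135). Mcm6 changed least of the ring. It had 484.6, 512.2, 525.3 and 551.5 CPM at 0 h, 533 and 556 CPM at 6 h, 546.9 and 539.3 CPM at 12 h, 432.3 and 477.9 CPM at 24 h, and 358.5 and 383 CPM at 48 h. Its change at 48 h was -0.46 ± 0.10 (adjusted p = 0.00213), with no overlap between 0 h and 48 h. Mcm3 and Mcm7 were lower from 24 h on, and Mcm4 at 48 h. The 24 h calls of Mcm3 and Mcm7 were lost without the set term. At 48 h Mcm3 stood at -0.86 ± 0.10 and Mcm7 at -0.84 ± 0.13.

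Of the genes that mark origins and load the ring, 4 of 4 were lower at 48 h, with a median of -0.52. Cdt1, which brings the ring to the origin, had 331.7, 342.2, 381.3 and 301.8 CPM at 0 h, 336.9 and 336.3 CPM at 6 h, 285.6 and 258 CPM at 12 h, 252.7 and 251.2 CPM at 24 h, and 205.5 and 191.1 CPM at 48 h. Its libraries lay below all at 0 h from 12 h on, and it fell by 0.44 ± 0.12 (adjusted p = 0.0134) at 24 h and by 0.78 ± 0.12 (adjusted p = 0.000128) at 48 h.

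Cdc6, the ATPase that works with Cdt1 in loading, took another course. It had 110.2, 100.4, 102.6 and 98.79 CPM at 0 h, 134.9 and 136.3 CPM at 6 h, 137.3 and 112.8 CPM at 12 h, 85.53 and 102.4 CPM at 24 h, and 75.1 and 68.45 CPM at 48 h. Its libraries at 6 and 12 h were above all at 0 h and those at 48 h below all. The 6 h difference, 0.38 ± 0.12, did not pass (adjusted p = 0.101), and the 48 h fall was -0.54 ± 0.13 (adjusted p = 0.00348). Orc1, the largest subunit of the origin recognition complex, changed least of these 4. Its levels were 70.66, 92.99, 85 and 91.49 CPM at 0 h, 59.37 and 94.72 CPM at 6 h, 71.28 and 90.51 CPM at 12 h, 42.5 and 79.01 CPM at 24 h, and 47.71 and 65.36 CPM at 48 h. Set 1 lay below set 2 at each time in RA, and the change at 48 h was -0.47 ± 0.14 (adjusted p = 0.0137). That call was lost without the set term, in set 2 alone, and without replicate 1 of 0 h or replicate 2 of 48 h. Orc6 fell by 0.50 ± 0.17 at 48 h.

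Of the genes that switch the helicase on, 3 of 4 were lower at 48 h. Mcm10, which joins the active helicase to polymerase alpha, had 177.1, 206.1, 216.3 and 208.2 CPM at 0 h, 189.3 and 239.9 CPM at 6 h, 172.4 and 186 CPM at 12 h, 97.03 and 149.3 CPM at 24 h, and 72.64 and 101.7 CPM at 48 h. Every library at 24 and 48 h lay below those at 0 h, and the changes were -0.65 ± 0.12 (adjusted p = 0.00169) and -1.14 ± 0.13 (adjusted p = 9.4e-06). Dbf4, the activating partner of Cdc7, was lower at both times, and Cdc45, which forms part of the running helicase, at 48 h.

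Cdc7, the kinase itself, had 50.67, 69.23, 52.62 and 61.32 CPM at 0 h, 53.07 and 73.42 CPM at 6 h, 58.27 and 79.57 CPM at 12 h, 52.08 and 70.55 CPM at 24 h, and 37.86 and 54.76 CPM at 48 h. The groups overlapped at each time. Its change at 48 h was -0.25 ± 0.14 (adjusted p = 0.153), and it passed with the replicate number as a block (-0.36) and without replicate 3 of 0 h (-0.32). The GINS complex, 4 small subunits that close the helicase, split into Gins1 and Gins4, which were lower at 48 h, and Gins2 and Gins3, which were not called.

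Gins4 had 172.4, 147.6, 176 and 142.6 CPM at 0 h, 152.7 and 142 CPM at 6 h, 157.6 and 148.4 CPM at 12 h, 127 and 118.6 CPM at 24 h, and 107.4 and 100.2 CPM at 48 h. Both later times lay below 0 h without overlap, with -0.41 ± 0.12 (adjusted p = 0.0196) at 24 h and -0.65 ± 0.12 (adjusted p = 0.000536) at 48 h. Gins3 had 41.34, 51.06, 40.49 and 42.63 CPM at 0 h, 40.35 and 60.67 CPM at 6 h, 52.86 and 56.94 CPM at 12 h, 32.38 and 56.01 CPM at 24 h, and 32.52 and 46.58 CPM at 48 h. The groups at 24 and 48 h overlapped 0 h, and the 48 h change was -0.07 ± 0.17 (adjusted p = 0.757). Gins2 stood at 0.41 ± 0.15 at 24 h (adjusted p = 0.0585) and -0.14 ± 0.15 at 48 h (adjusted p = 0.475).

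The clamp gene Pcna had the largest fitted fall of the 45, a rank that rests on set 1, and its value is uncertain. It had 528.9, 207, 236.4 and 202.9 CPM at 0 h, 342 and 230.2 CPM at 6 h, 318.7 and 208.3 CPM at 12 h, 237.6 and 170.1 CPM at 24 h, and 111.9 and 106.8 CPM at 48 h. Replicate 1 stood far above the others at 0 h and the DMSO libraries, of the same set, held 559.4 and 473.8 CPM, yet both 48 h libraries lay below every other library. The change was -0.62 ± 0.21 (adjusted p = 0.0386) at 24 h and -1.47 ± 0.22 (adjusted p = 0.000113) at 48 h. The plain log2 difference at 48 h was -2.24 within set 1 and -1.01 within set 2, where Rfc5 at -1.16, Pold2 at -1.16, Pold1 at -1.10, Mcm10 at -1.05, Rrm2 at -1.03 and Mcm5 at -1.03 stood below it.

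The pseudogene entry Pcna-ps2 took 31.2% of the counts of the pair in replicate 1 of 0 h and 32.3 and 36.8% in DMSO, but 49.3 to 54.7% in the other 0 h libraries and 44.8 to 55.6% in the RA libraries. How reads were divided between the pair was not tested. The 2 entries were also summed, a choice made after seeing the data. The sum had 768.2, 433.4, 466.6 and 447.6 CPM at 0 h and 246.5 and 224.3 CPM at 48 h, still without overlap. It fell by 1.23 ± 0.14 (adjusted p = 1.17e-05) at 48 h and by 0.49 ± 0.14 (adjusted p = 0.0158) at 24 h.

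The clamp loader, a ring of Rfc1 to Rfc5 that opens the clamp onto DNA, had 4 of 5 members lower at 48 h. Rfc5 fell by 1.14 ± 0.12 (adjusted p = 5.85e-06), and Rfc1, Rfc2 and Rfc3 changed by between -0.59 and -0.35. Rfc4 had 32.47, 74.36, 66.65 and 52.95 CPM at 0 h, 41.51 and 63.43 CPM at 6 h, 39.73 and 65.08 CPM at 12 h, 37.07 and 55.92 CPM at 24 h, and 30.16 and 58.6 CPM at 48 h. Set 1 was below set 2 at every time in RA, the groups overlapped, and the change at 48 h was -0.18 ± 0.16 (adjusted p = 0.386).

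The 3 subunits of RPA did not follow one course. Rpa2 had 179.8, 184, 212 and 189.9 CPM at 0 h, 180.9 and 192.6 CPM at 6 h, 153.6 and 154.7 CPM at 12 h, 132.9 and 130.4 CPM at 24 h, and 89.36 and 100.6 CPM at 48 h. Its libraries lay below all at 0 h from 12 h on, and it fell by 0.52 ± 0.11 (adjusted p = 0.00389) at 24 h and by 0.99 ± 0.12 (adjusted p = 1.28e-05) at 48 h. Rpa3, the smallest subunit, had 34.73, 43.05, 41.76 and 36.69 CPM at 0 h, 40.86 and 45.74 CPM at 6 h, 35.76 and 57.88 CPM at 12 h, 54.75 and 47.97 CPM at 24 h, and 34.27 and 36.31 CPM at 48 h. Both 24 h libraries exceeded all at 0 h, but the difference of 0.45 ± 0.17 did not pass (adjusted p = 0.0546), nor did -0.10 ± 0.17 at 48 h (adjusted p = 0.67).

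Rpa1, the large subunit that makes most contacts with single-stranded DNA, rose first and then returned to near its start. It had 381.9, 386.3, 345.1 and 360.6 CPM at 0 h, 689.7 and 695 CPM at 6 h, 914.4 and 789.4 CPM at 12 h, 957.1 and 657.2 CPM at 24 h, and 295 and 287.5 CPM at 48 h, with 384.5 and 354.2 CPM in DMSO. No RA library overlapped those at 0 h. The changes were 0.87 ± 0.12 at 6 h (adjusted p = 0.000504), 1.17 ± 0.12 at 12 h (adjusted p = 2.75e-05) and 1.08 ± 0.12 at 24 h (adjusted p = 2.74e-05). At 48 h it was -0.38 ± 0.13 (adjusted p = 0.0245), a call lost without either library of 48 h, without replicate 2 of 0 h, without the set term and in set 2 alone. Against DMSO at 48 h Rpa1 stood at -0.20 (adjusted p = 0.451). The 6 h call was lost without replicate 2 of 6 h. The count at 6 h was 2 when replicate 1 or 3 of the 0 h libraries was left out, and likewise replicate 1 of 24 h. From 24 to 48 h Rpa1 fell by 1.46 ± 0.15 (adjusted p = 7.69e-05), and it was called in each leave-one-out fit of that step.

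Smyd4, a gene of the SET and MYND domain family, lies beside Rpa1 on the opposite strand and was looked at after Rpa1's values were seen. The starts of RefSeq's promoter table lie apart by 49 bases, at chr11:75348384-75348432, and the full extents of both genes in RefSeq overlap. The stretch between these starts is shown on the strand of Rpa1, with a CCAAT in capitals.
Rpa1 to Smyd4: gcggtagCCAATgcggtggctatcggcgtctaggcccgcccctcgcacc

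Smyd4 had 17.74, 16.87, 16.45 and 16.84 CPM at 0 h, 42.92 and 43.08 CPM at 6 h, 54.18 and 50.68 CPM at 12 h, 41.43 and 46.18 CPM at 24 h, and 17.13 and 23.2 CPM at 48 h. The libraries from 6 to 24 h stood above all at 0 h and those at 48 h overlapped them. It rose by 1.36 ± 0.15 at 6 h (adjusted p = 6.45e-05), 1.65 ± 0.15 at 12 h (adjusted p = 7.48e-06) and 1.39 ± 0.15 at 24 h (adjusted p = 1.63e-05), and stood at 0.27 ± 0.16 at 48 h (adjusted p = 0.175). Whether the counting used strand is not given in the sources used here, and reads that run from one gene into the other were not separated. Of the 45 genes, 12, with Rpa1 among them, overlap a protein-coding gene in RefSeq and 18 overlap any gene. Rtn4rl1, the protein-coding gene on the other side of Rpa1, was not called at any time, with -0.34 ± 0.41 at 6 h (adjusted p = 0.745), 0.14 ± 0.39 at 12 h (adjusted p = 0.853) and 0.76 ± 0.38 at 24 h (adjusted p = 0.15).

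**Figure D3:**
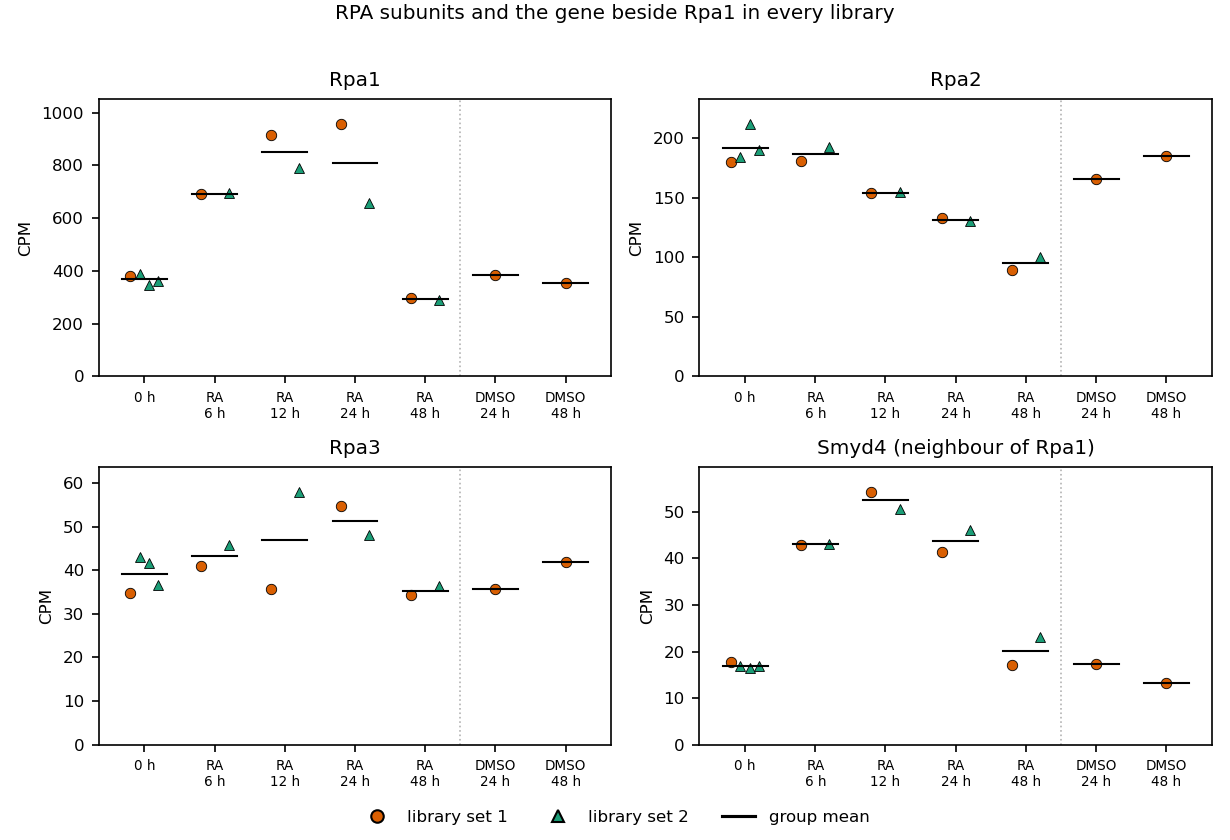
CPM of Rpa1, Rpa2, Rpa3 and Smyd4 in each library by group, with circles for set 1, triangles for set 2 and bars for group means. Rpa1 and Smyd4 are high from 6 to 24 h of RA and back near or below the 0 h libraries at 48 h, while Rpa2 declines to 89.36 and 100.6 CPM.

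Polymerase alpha and its primase, which start each new strand, had 3 of 4 genes lower at 48 h. Pola2, the accessory subunit, had 164.9, 184.3, 182.2 and 176.8 CPM at 0 h, 200.6 and 231.8 CPM at 6 h, 197.8 and 198.8 CPM at 12 h, 159.1 and 173.5 CPM at 24 h, and 119.6 and 123.8 CPM at 48 h. It lay above all 0 h libraries at 6 and 12 h and below all at 48 h, with -0.51 ± 0.11 (adjusted p = 0.00136). Prim2, the large primase subunit, had 49.61, 63.55, 55.79 and 58.98 CPM at 0 h, 56.54 and 71.23 CPM at 6 h, 59.12 and 74.89 CPM at 12 h, 42.28 and 53.87 CPM at 24 h, and 42.17 and 47.83 CPM at 48 h. Its 48 h libraries did not overlap those at 0 h, but -0.27 ± 0.12 did not pass (adjusted p = 0.0897).

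Polymerases delta and epsilon, which extend the strands, had 3 of 4 genes lower at 48 h, with a median of -0.68. Pold2, an accessory subunit of delta, had 296, 172.6, 224.1 and 167.3 CPM at 0 h, 244.7 and 165.6 CPM at 6 h, 193.5 and 126.7 CPM at 12 h, 217 and 115.5 CPM at 24 h, and 121.5 and 83.55 CPM at 48 h. It was the only one of the 45 called lower at 12 h, at -0.59 ± 0.14 (adjusted p = 0.0136), and at 48 h, without overlap, it stood at -1.23 ± 0.14 (adjusted p = 1.34e-05). Pold1, the catalytic subunit of delta, fell by 1.00 ± 0.15 (adjusted p = 0.000121), and Pole, that of epsilon, by 0.37 ± 0.14 (adjusted p = 0.0496). Pole2 had 28.87, 62.62, 57.05 and 56.94 CPM at 0 h, 32.77 and 64.57 CPM at 6 h, 48.16 and 73.4 CPM at 12 h, 35.15 and 55.67 CPM at 24 h, and 30.27 and 44.57 CPM at 48 h. Its groups overlapped, with -0.24 ± 0.15 at 48 h (adjusted p = 0.202).

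Among genes that supply nucleotides, 3 of 4 were lower at 48 h. Rrm2, the small subunit of ribonucleotide reductase that rises and falls with S phase, had 555.5, 551.6, 505.4 and 497.4 CPM at 0 h, 608 and 734.4 CPM at 6 h, 578.6 and 646.3 CPM at 12 h, 283.7 and 461.1 CPM at 24 h, and 210.6 and 253.3 CPM at 48 h. It stood above all 0 h libraries at 6 and 12 h and below all from 24 h. The later changes were -0.47 ± 0.15 (adjusted p = 0.0261) and -1.14 ± 0.15 (adjusted p = 3.96e-05). Rrm1, the large subunit, which is known to be more stable over the cycle, fell by 0.31 ± 0.12 (adjusted p = 0.0384), and Tyms, which makes thymidylate, by 0.42 ± 0.12 (adjusted p = 0.0107).

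Tk1, thymidine kinase, had 36.83, 40.81, 42.92 and 43.31 CPM at 0 h, 67.47 and 54.97 CPM at 6 h, 63.09 and 51.8 CPM at 12 h, 45.37 and 41.13 CPM at 24 h, and 48.73 and 26.63 CPM at 48 h. Its libraries at 6 and 12 h were above all at 0 h, without a call at 6 h (0.50 ± 0.18, adjusted p = 0.152). The 2 libraries at 48 h lay on opposite sides of 0 h, and the change of -0.23 ± 0.19 was not called (adjusted p = 0.342). It turned to 0.23 without replicate 2 of 48 h and passed at -0.68 without replicate 1.

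Both genes that finish the lagging strand were lower at 48 h. Fen1, the flap nuclease, had 179.8, 163.4, 168 and 155.9 CPM at 0 h, 187.1 and 150.4 CPM at 6 h, 162.2 and 132.5 CPM at 12 h, 129.2 and 115.4 CPM at 24 h, and 102.6 and 84.64 CPM at 48 h. It lay below 0 h without overlap at 24 h, at -0.51 ± 0.11 (adjusted p = 0.00362), and at 48 h, at -0.90 ± 0.11 (adjusted p = 2.27e-05). Lig1, the ligase that seals the nicks, had 402.8, 340.3, 367.4 and 338.6 CPM at 0 h, 445.4 and 381.3 CPM at 6 h, 416.8 and 339.8 CPM at 12 h, 470.1 and 318.4 CPM at 24 h, and 292 and 210.2 CPM at 48 h. Only the 48 h libraries were below all at 0 h, with -0.63 ± 0.12 (adjusted p = 0.00059), a call lost without the set term.

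Of the genes at the fork that serve chromatin, Chaf1a and Slbp were lower at 48 h and Chaf1b and Timeless were not called. Chaf1a, a subunit of the assembly factor that lays down new histones, had 179.5, 143.1, 154 and 135 CPM at 0 h, 165 and 147.6 CPM at 6 h, 173.3 and 128.2 CPM at 12 h, 174.7 and 131.9 CPM at 24 h, and 111.9 and 102.8 CPM at 48 h. It overlapped 0 h until 24 h and not at 48 h, with -0.58 ± 0.12 (adjusted p = 0.00128), a call lost without the set term and in set 2 alone. Timeless, which steadies the fork, had 138.9, 130, 118.4 and 117.3 CPM at 0 h, 142.5 and 122 CPM at 6 h, 139.8 and 110.3 CPM at 12 h, 126.6 and 126.8 CPM at 24 h, and 121.6 and 106.3 CPM at 48 h. Its groups overlapped at each time, with -0.19 ± 0.12 at 48 h (adjusted p = 0.18). Slbp, which binds the ends of histone messages, fell by 0.50 ± 0.13 (adjusted p = 0.00503).

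**Figure D4:**
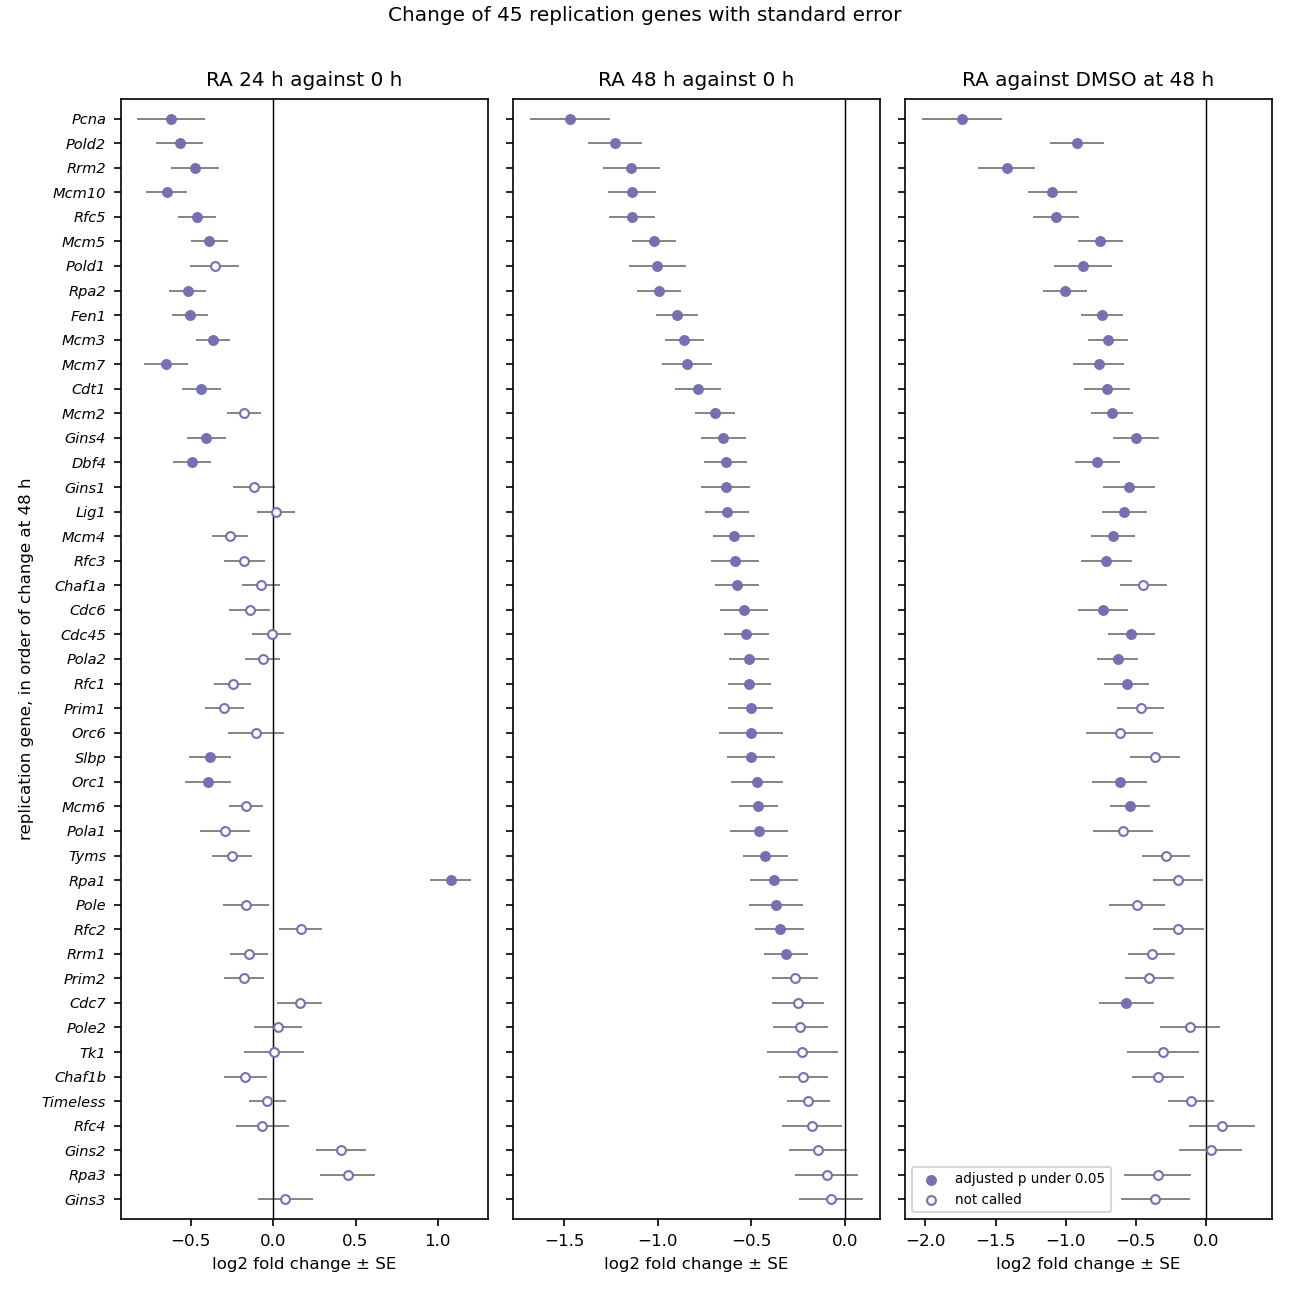
Log2 fold change with its SE (bars) of the 45 replication genes, in the order of their change at 48 h, for RA at 24 h and 48 h against 0 h and for RA against DMSO at 48 h. Filled points have an adjusted p under 0.05. Points at 48 h run from -1.47 for Pcna to -0.07 for Gins3, and Rpa1 stands alone at 1.08 at 24 h.

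Successive times in RA were also compared. From 12 to 24 h 5 of the 45 genes were lower, Dbf4, Mcm10, Pola1, Rrm2 and Slbp, where 2.73% of all genes were lower and 3.53% higher, and the median was -0.26. None of these 5 calls stood without the set term, where 0% of all genes were lower, in set 2 alone, or without replicate 1 of 24 h or either library of 12 h. The count was 2 without replicate 1 of 6 h, and 8 without replicate 3 of 0 h or replicate 2 of 24 h. From 24 to 48 h 17 were lower and none higher, where 4.62% of all genes were lower and 6.4% higher, with 45 of 45 below 0 and a median of -0.39. That count was 1 without the set term, where 0.217% of all genes were lower, and 1 in set 2 alone, and it fell to 2, 4, 6, 9 and 11 without replicate 2 of 48 h, replicate 1 of 48 h, replicate 1 of 24 h, replicate 2 of 6 h and replicate 1 of 6 h or replicate 2 of 0 h. Rpa1 alone was called in each leave-one-out fit.

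No replication gene was called between cells in solvent and cells at 0 h. For the mean of both DMSO libraries against 0 h edgeR called 0 of the 45 genes and 0% of all genes, and none of the 45 had an unadjusted p under 0.05, against 1263 genes in all. DESeq2 called 6 genes and none of the 45. The median of the 45 was -0.01.

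Against DMSO at the same time, few replication genes were lower in RA at 24 h and most were at 48 h. Each DMSO group is 1 library of set 1, assumed to vary like the other groups, and its comparison shares the RA libraries with that against 0 h. At 24 h 4 genes were lower, Pcna, Dbf4, Mcm10 and Rrm2, and Rpa1 was higher, where 4.61% of all genes were lower and 5.83% higher. None was called without the set term, where 0.594% of all genes were lower, and without replicate 1 of 24 h Rpa1 alone was. Without replicate 2 of 24 h 9 were called, 7 lower and 2 higher. Rpa1 stood at 1.14 ± 0.19 (adjusted p = 0.00201), Rrm2 at -0.85 (adjusted p = 0.0193) and Mcm10 at -0.67 (adjusted p = 0.0258).

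At 48 h 26 of the 45 genes were lower than in DMSO and none higher, where 11.5% of all genes were lower and 12.6% higher. The median was -0.57 with 43 below 0, and within set 1 44 were below 0 with a median of -0.57. The count was 10 without the set term, where 3.16% of all genes were lower, and 14 without replicate 2 of 48 h. All 6 MCM genes were among the 26, with Mcm5 at -0.75 ± 0.16 (adjusted p = 0.00402), as were the 4 activation genes, with Mcm10 at -1.09 ± 0.17 (adjusted p = 0.000625). Cdc7 was called here, at -0.57 ± 0.20 (adjusted p = 0.0486), and not against 0 h. That call of Cdc7 was lost without the set term, with DESeq2, under either other filter for low counts and without either library of 6, 12 or 48 h or replicate 2 or 4 of 0 h, with an adjusted p of up to 0.157 when 1 library was left out. Of the 26 calls 13 stood in every such fit. Pcna stood at -1.74 ± 0.29 (adjusted p = 0.000991), Rrm2 at -1.42 ± 0.20 (adjusted p = 0.000286) and Rpa2 at -1.002 ± 0.16 (adjusted p = 0.000586). Of the chromatin and fork genes 0 of 4 were called. The difference between the RA effects at 48 and 24 h was itself tested, and 0 of the 45 genes passed, where 0.0619% of all genes did. By unadjusted p under 0.05 there were 10. DESeq2 called 1, and so did edgeR with no filter for low counts, without replicate 3 of 0 h or without replicate 2 of 24 h. The nearest was Rpa1, at -1.34 ± 0.25 (adjusted p = 0.0654).

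The E2F motifs of the promoter windows were set beside the changes at 48 h as a description. Of the 13 with one 11 were lower, with a median of -0.59, and of the 25 without one 19, with a median of -0.51. Of the 7 with no window 5 were lower, with a median of -0.37. Of the largest falls, Pcna, Pold2, Rrm2, Mcm10 and Rfc5 are in the group without, and Mcm5 and Pold1, next in order, are in the group with. Other forms of the E2F site were not searched.

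Further genes of replication and of the cycle were read from lists of the same kind, whose counts at 48 h stand beside 22.9% of all genes lower and 25.8% higher. Of 40 other replication genes tested 26 were lower and 1 higher at 48 h, with a median of -0.49. Uhrf1, which carries DNA methylation through replication, fell by 1.15 ± 0.12 (adjusted p = 4.66e-06), Hells, a chromatin remodeller, by 1.12 ± 0.17 (adjusted p = 0.000106) and Chtf18, an alternative clamp loader, by 1.07 ± 0.14 (adjusted p = 3.23e-05). The 1 that rose was Pold4, the smallest subunit of polymerase delta, at 1.38 ± 0.33 (adjusted p = 0.00368), opposite to Pold1 and Pold2. Pold4 was near the floor, with 11, 19, 25 and 17 counts at 0 h and 43 and 60 at 48 h. Its mean at 0 h was 1.93 CPM, against 256.2 CPM for Pold1 and 215 CPM for Pold2.

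Of 28 regulators of the E2F and RB pathway and S phase entry 16 were lower and 4 higher at 48 h, with a median of -0.48. Ccne1, the cyclin that partners Cdk2 at S phase entry, had 170.5, 189.8, 256.6 and 243.9 CPM at 0 h, 241.8 and 280.5 CPM at 6 h, 199.9 and 222.6 CPM at 12 h, 112.7 and 163.1 CPM at 24 h, and 81.98 and 92.57 CPM at 48 h. It lay below all at 0 h from 24 h, at -0.57 ± 0.14 (adjusted p = 0.00834), and reached -1.22 ± 0.15 (adjusted p = 1.82e-05) at 48 h. E2f4 fell by 1.56 ± 0.13 (adjusted p = 8.55e-07), Ccnd1 by 1.51 ± 0.16 (adjusted p = 5.4e-06) and E2f2 by 1.48 ± 0.16 (adjusted p = 5.88e-06). The 4 higher than at 0 h were Ccnd2 at 1.49 ± 0.37 (adjusted p = 0.00729), E2f5, Rb1 and Cdk2. Within set 1 the plain log2 difference of RA over DMSO at 48 h was 1.48 for Ccnd2 and 0.37 for Cdk2. It was only 0.03 for E2f5 and 0.04 for Rb1, whose DMSO library at 48 h stood 0.24 and 0.25 above 0 h.

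Of 6 inhibitors of cyclin-dependent kinases 5 were higher and 1 lower at 48 h. Cdkn2a stood at 1.90 ± 0.26 (adjusted p = 5.15e-05), Cdkn2c at 1.66 ± 0.41 (adjusted p = 0.00408), Cdkn2b at 1.62 ± 0.47 (adjusted p = 0.0107), Cdkn1b at 0.90 ± 0.16 (adjusted p = 0.000409) and Cdkn1a at 0.61 ± 0.16 (adjusted p = 0.00687). Levels of Cdkn2b and Cdkn2c were low, with means of 0.93 and 0.89 CPM at 0 h and 2.67 and 3.58 CPM at 48 h. Within set 1 at 48 h, the plain log2 difference of these 5 was 0.05 to 0.67 for DMSO over 0 h. For RA over DMSO it was 0.31 for Cdkn1a, 0.33 for Cdkn1b and 1.14 to 1.62 for the others. Cdkn1c, an imprinted inhibitor, fell by 1.99 ± 0.36 (adjusted p = 0.000536). Of 30 mitosis genes 14 were lower and 1, Cenpe, was higher, with a median of -0.30. Within set 1 Cenpe stood 0.10 higher in RA than in DMSO at 48 h, and DMSO at 48 h stood 0.24 above 0 h. Cdc20, which activates the anaphase-promoting complex, fell by 0.93 ± 0.20 (adjusted p = 0.00163) and the cyclin gene Ccnb1 by 0.65 ± 0.13 (adjusted p = 0.00103). At 24 h the mitosis list had 4 lower and 2 higher with a median of -0.05, where 13.5% of all genes were lower and 15.5% higher.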

How the data were processed

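Counts of reads per gene were deposited by the authors, 1 table for each of the 14 mRNA libraries, and the submitters' processing notes name TopHat2 2.0.7, HTSeq, DESeq and build mm9. RNA was taken with TRIzol and made into TruSeq libraries, per the labels' protocols. The 5 entries that name no gene held 72.52 to 76.78% of all counts and were left out. Genes were filtered by filterByExpr, scaled by TMM (factors 0.9291 to 1.095) and fitted over all 14 libraries with group and library set as terms (6 residual degrees of freedom) in edgeR 4.0.16 under R 4.3.3, which was tested on simulated data. Alternatives were DESeq2 1.42.0, other filters and scalings, no set term, set 2 alone, a replicate block and leaving out each library. Same-numbered libraries deviated together (correlations 0.648 to 0.775 over 10 pairs of groups), and the number coincides with the set.

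The 45 genes and all lists were chosen with earlier results of these data known. Values in each library are printed for Pcna, Mcm2, Cdc6, Rpa2 and Ccne1 and for the largest and smallest change at 48 h in each role. Other lists give up to 4 genes of largest change. Rpa1's library values, Smyd4, Pcna-ps2 and a few further list members were chosen after values were seen. Sequences are from RefSeq, GRCm38.p6. Binding data of the series were not used here.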

Additional observations from a re-analysis of the deposited data

Results flagged for a closer look

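Single libraries stood apart from the other 3 at 0 h in 5 of 46 groups of values tested with Dixon's criterion (gap over range above 0.829), where chance gives about 1 in 20. Pcna was high in replicate 1, at 528.9 CPM against at most 236.4 CPM in the others, and Pole2 was low in it, at 28.87 CPM against 56.94 to 62.62 CPM. Replicate 1 is the only 0 h library of set 1. Cdc45 was low in replicate 2, at 82.46 CPM against 96.52 to 98.39 CPM. Replicate 3 was high for Gins1, at 53.68 CPM against 46.31 to 47.51 CPM, and low for Rfc3, at 84.05 CPM against 91.59 to 92.34 CPM.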

How the results depend on the processing

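No called replication gene changed sign under any alternative run. Without the set term the counts of called genes were 1 at 12 h, 3 at 24 h, 22 at 48 h, 0 from 12 to 24 h, 1 from 24 to 48 h, and 0 and 10 against DMSO at 24 and 48 h. In set 2 alone they were 1, 2 and 20 at 12, 24 and 48 h, and 0 and 1 for the successive steps. Set 2 holds 1 library of each RA time, and fewer of all genes were called there as well. DESeq2 and the replicate block each gave 9 from 12 to 24 h. In that step DESeq2 had 800 of 16155 genes lower and 703 higher, and the replicate block 812 of 15308 lower and 989 higher. The main fit had 441 of 16155 lower and 571 higher. The test of the difference between times gave 1 with DESeq2 and 1 with no filter for low counts. At 48 h the replicate block lost the call of Rfc2 alone. Calls of Pole, Rfc2 and Rrm1 at 48 h were lost without the set term, in set 2 alone and under either other filter for low counts. RLE scaling lost those of Pole and Rfc2. Leaving out 1 library gave 0 to 2 calls at 6 h, 1 to 3 at 12 h, 9 to 17 at 24 h, 21 to 35 at 48 h, 0 to 8 from 12 to 24 h, 2 to 19 from 24 to 48 h, 1 to 9 and 14 to 28 against DMSO at 24 and 48 h, and 0 to 1 for the difference. The number of all genes called moved between these fits as well. Uncalled genes turned sign at 48 h: Gins3 stood at 0.082 in set 2 alone and between -0.14 and 0.049 when 1 library was left out, Rpa3 between -0.23 and 0.047, and Tk1 between -0.68 and 0.23. The cause was not tested. With 1 or 2 libraries at each time after 0 h, changes much smaller than those called were not detectable.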
